A study of Mus musculus with 15 samples.

Results

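The smooth muscle contractile genes are the parts and the switch of the force-generating machine of smooth muscle cells, and 8 of them were followed here: Myh11, Myl9, Mylk, Acta2, Lmod1, Cnn1, Tagln and Smtn. They were found by gene name, as 8 rows of the 18073 in a table of RNA levels in mouse aortic valve leaflets. The leaflets, 3 per mouse, came from 15 C57BL/6 mice aged 2 months, and the RNA was sequenced after collagenase treatment and linear amplification. The 4 groups are called here by their labelled genotype. Het-short (N1het_TercG2) held 4 mice with 1 working copy of Notch1 that were also Terc-/- of generation 2, and therefore had shortened telomeres. WT-short (N1WT_TercG2) held 3 mice with both copies of Notch1 and the same generation 2 loss of Terc. Het-long (N1het_TercWT) held 4 Notch1 heterozygous mice with intact Terc and long telomeres. WT-long (N1WT_TercWT) held 4 mice wild type for both genes. The labels name no Cre driver, and the sources used here do not give which Notch1 allele was used. The title of the series poses whether telomere length alters what follows from losing 1 copy of Notch1.

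In smooth muscle, calcium bound to calmodulin switches on myosin light chain kinase, which phosphorylates the regulatory light chain and lets smooth muscle myosin pull on actin filaments; a phosphatase reverses the step. Most genes of this machine are controlled by serum response factor (Srf) with its cofactor myocardin (Myocd), which act through a DNA element called the CArG box. A healthy aortic valve leaflet consists mainly of interstitial cells under an endothelial layer, with few smooth muscle cells, whereas the aortic root beside it is rich in smooth muscle. Interstitial cells that become activated are known to gain Acta2 and Tagln.

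The table gives 1 FPKM value per gene and group, the number of fragments adjusted for the length of the transcript and the size of the library. Each value stands for all mice of its group, so the spread between mice and the depth behind each value are unknown, no value below carries an error, and no difference has a replicate check. The table also marks genes that the authors called different between 5 pairs of groups. "Fell" and "rose" are used below for those calls only. Log2 folds are differences of log2(FPKM + 1), a scale on which the change of a weakly expressed gene looks smaller than it is. The label check gave Terc (ENSMUSG00000064796) listed at 0 in het-short and in WT-short, against 4.52 FPKM in het-long and 1.42 FPKM in WT-long. Notch1 (ENSMUSG00000026923) stood at 25.1 FPKM in het-long against 39.1 FPKM in WT-long, but at 23.3 FPKM in het-short against 16.6 FPKM in WT-short, an order that goes against the genotype labels, so the groups are named as labelled throughout. Valve interstitial markers were high in every group (13 genes, mean log2(FPKM + 1) from 6.99 to 7.60), endothelial markers were also present (12 genes, 4.44 to 5.44), and so were cardiac sarcomere genes (12 genes, 7.43 to 7.97). Mitochondrially encoded genes held 35.0% of the summed FPKM in het-short, 32.5% in WT-short, 10.01% in het-long and 14.4% in WT-long; without them the summed FPKM was 383826 in het-short, 393645 in WT-short, 375138 in het-long and 366143 in WT-long. In tissue RNA of this kind, fewer cells of a type and less RNA per cell cannot be told apart.

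RefSeq promoter sequences (build GRCm38.p6, 250 bases before to 50 after the gene start) were matched for 6 of the 8 genes; Myh11 and Tagln are named only. Myl9 and Acta2 are printed because they held CArG boxes or near matches, and Cnn1 because it had the widest range across the groups and held neither. Capitals mark a CArG box, a CC and a GG around 6 letters that are A or T, or the same box with 1 inner letter changed; the sequences run 5′ to 3′ on the gene's own strand.
Myl9, chr2:156775214-156775513, plus strand: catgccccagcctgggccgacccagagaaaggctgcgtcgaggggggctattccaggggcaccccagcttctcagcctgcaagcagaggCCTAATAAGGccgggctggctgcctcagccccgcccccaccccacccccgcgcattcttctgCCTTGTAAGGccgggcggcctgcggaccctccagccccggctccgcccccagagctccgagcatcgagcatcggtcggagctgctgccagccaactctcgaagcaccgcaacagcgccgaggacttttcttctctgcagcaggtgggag
Acta2, chr19:34255324-34255623, minus strand: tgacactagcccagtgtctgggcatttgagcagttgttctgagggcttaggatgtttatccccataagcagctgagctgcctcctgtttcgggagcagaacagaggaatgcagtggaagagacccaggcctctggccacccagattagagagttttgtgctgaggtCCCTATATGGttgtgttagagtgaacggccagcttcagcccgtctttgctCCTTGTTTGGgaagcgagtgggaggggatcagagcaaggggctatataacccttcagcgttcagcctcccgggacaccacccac
Cnn1, chr9:22099003-22099302, plus strand: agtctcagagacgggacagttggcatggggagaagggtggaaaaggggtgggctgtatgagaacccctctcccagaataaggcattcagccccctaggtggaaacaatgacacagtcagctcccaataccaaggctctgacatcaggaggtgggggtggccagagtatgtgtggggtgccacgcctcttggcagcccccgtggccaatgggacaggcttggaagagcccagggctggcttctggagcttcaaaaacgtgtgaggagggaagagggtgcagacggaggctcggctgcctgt
Myl9 held a full box at -161 from the gene start (CCTAATAAGG) and a changed box at -99 (CCTTGTAAGG). Acta2 held changed boxes at -84 (CCCTATATGG) and at -34 (CCTTGTTTGG). Full boxes stood in 1.63% of 32851 mouse promoters of the same length and in 1 of the 6 matched here, and changed boxes in 8.50% of all and in 2 of the 6. On either strand, CATTCC, the element bound by Tead factors, stood in 14.7% of all promoters and in 4 of the 6: Lmod1, Acta2, Smtn and Mylk. TGGGAA, the core bound by the Notch effector Rbpj, stood in 25.6% of all promoters and in 2 of the 6, Acta2 and Smtn. In Acta2 it overlaps the end of the changed box at -34. These matches describe letters in a short window, and whether a factor binds there was not measured.

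Myh11 (ENSMUSG00000018830) encodes the myosin heavy chain of smooth muscle, the motor itself and the gene most particular to differentiated smooth muscle cells. It stood at 14.0 FPKM in het-short, 24.1 FPKM in WT-short, 4.55 FPKM in het-long and 83.6 FPKM in WT-long. The WT-long value was 18.4 times that of het-long. In WT-long Myh11 ranked at the 96.6th percentile of all genes, and in het-long at the 40.1st percentile. Myl9 (ENSMUSG00000067818), the regulatory light chain that the kinase phosphorylates, stood at 64.9 FPKM in het-short, 188 FPKM in WT-short, 28.5 FPKM in het-long and 314 FPKM in WT-long. Both WT groups were thus above both het groups for Myl9, and the highest value was 11.01 times the lowest. Mylk (ENSMUSG00000022836), the kinase, stood at 9.66 FPKM in het-short, 9.87 FPKM in WT-short, 3.01 FPKM in het-long and 26.7 FPKM in WT-long. For Mylk both short-telomere groups lay at nearly the same level between the 2 long-telomere groups.

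Acta2 (ENSMUSG00000035783), smooth muscle alpha-actin, is the thin filament on which the motor pulls. It stood at 231 FPKM in het-short, 252 FPKM in WT-short, 104 FPKM in het-long and 494 FPKM in WT-long. Acta2 was the most abundant of the 8 genes in each of the 4 groups, and even its lowest value, in het-long, ranked at the 97.1st percentile of all genes. Lmod1 (ENSMUSG00000048096), leiomodin 1, seeds new actin filaments in smooth muscle. Its values were 3.06 FPKM in het-short, 6.79 FPKM in WT-short, 1.90 FPKM in het-long and 30.6 FPKM in WT-long. In WT-long Lmod1 was at 16.1 times its het-long level, and the 3 other groups lay closer to each other than to WT-long.

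Cnn1 (ENSMUSG00000001349), calponin 1, binds actin and restrains the myosin motor. It stood at 2.66 FPKM in het-short, 10.4 FPKM in WT-short, 4.06 FPKM in het-long and 50.7 FPKM in WT-long, and its ratio of highest to lowest value, 19.0, was the largest of the 8. Tagln (ENSMUSG00000032085), transgelin or SM22-alpha, is an actin cross-linking protein. Its levels were 67.1 FPKM in het-short, 69.3 FPKM in WT-short, 39.9 FPKM in het-long and 123 FPKM in WT-long. Its ratio of highest to lowest value, 3.09, was the smallest of the 8. Smtn (ENSMUSG00000020439), smoothelin, binds actin filaments in contractile smooth muscle. It stood at 14.8 FPKM in het-short, 21.9 FPKM in WT-short, 21.9 FPKM in het-long and 76.6 FPKM in WT-long. Smtn was the gene for which WT-short and het-long were level, and WT-long stood apart from all 3 other groups.

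**Figure D1:**
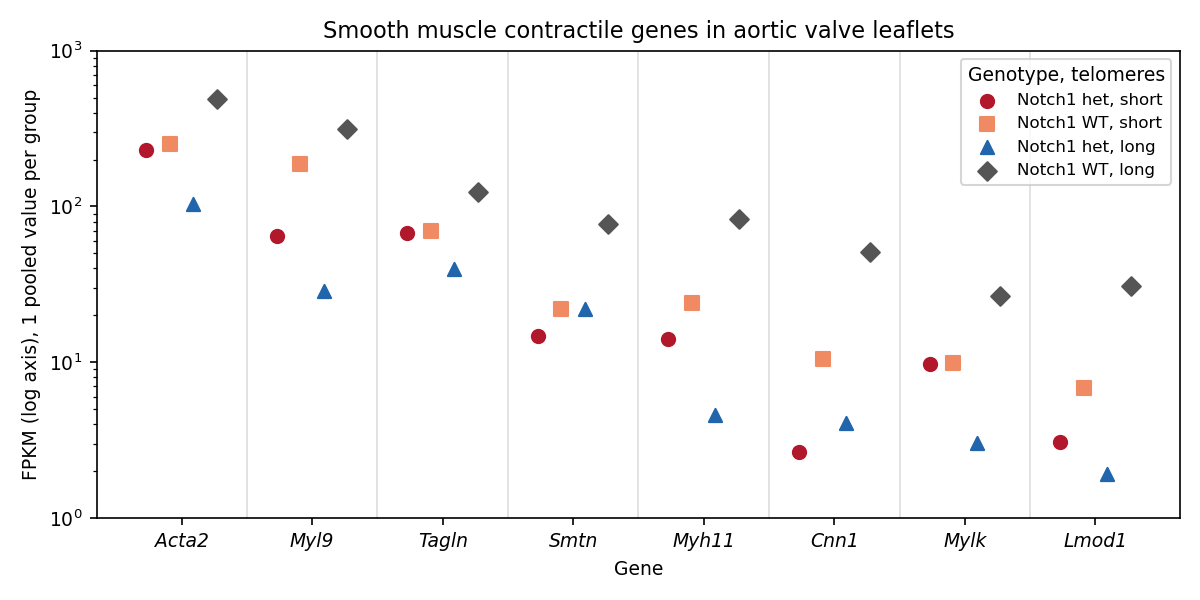
FPKM of the 8 genes (log axis, ordered by mean level) in the 4 groups, with 1 pooled value per group and no error bars because values per mouse were not used. WT-long (diamonds) is the highest point for each of the 8 genes, WT-short (squares) the second highest, and het-long (triangles) the lowest for 6.

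WT-long was the highest group for 8 of 8 genes and WT-short the second highest for 8 of 8. Het-long was the lowest for 6 genes and het-short for 2, Cnn1 and Smtn. How many of all genes share these orders was not counted. Relative to WT-long, 43.6% of all genes were lower in het-long, 61.1% in WT-short and 58.2% in het-short. Whether neighbouring groups in these orders differ beyond the spread between mice could not be tested. The closest neighbours were het-short and WT-short for Mylk, Tagln and Acta2, and WT-short and het-long for Smtn. Summed over the 8 genes, the level was 407 FPKM in het-short, 583 FPKM in WT-short, 207 FPKM in het-long and 1199 FPKM in WT-long.

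The mix of the 8 transcripts also differed between groups. Acta2 made up 56.7% of the sum in het-short, 43.3% in WT-short, 49.9% in het-long and 41.2% in WT-long. Acta2 transcripts, on the per-length FPKM scale, outnumbered those of Myh11 16.4-fold in het-short, 10.5-fold in WT-short, 22.8-fold in het-long and 5.91-fold in WT-long. Tagln outnumbered Cnn1 25.2-fold in het-short, 6.66-fold in WT-short, 9.84-fold in het-long and 2.43-fold in WT-long. The second most abundant of the 8 was Tagln in het-short and het-long, and Myl9 in WT-short and WT-long. Relative to Acta2, Myh11 was thus highest in WT-long, as was Cnn1 relative to Tagln. The ratio of Mylk to Myl9 was not highest or lowest in WT-long: 0.149 in het-short, 0.0525 in WT-short, 0.105 in het-long and 0.0848 in WT-long. Myh11 and Cnn1 are largely particular to differentiated smooth muscle, while Acta2 and Tagln are also known in activated interstitial cells. Which cells these transcripts came from was not tested.

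Loss of 1 copy of Notch1 with long telomeres went with the lowest levels of 6 of the 8 genes. In the authors' deposited table, Myh11, Cnn1, Myl9, Lmod1 and Mylk fell in het-long relative to WT-long. These 5 of 8 compare with 0.271% of all 18073 genes called lower in that comparison in the authors' deposited table, and with 0.526% of the 6843 genes with a mean of at least 10 FPKM. The log2 fold was -3.93 for Myh11, -3.35 for Cnn1, -3.42 for Myl9, -3.45 for Lmod1 and -2.79 for Mylk. The 3 other genes were lower without being called: Acta2 had a log2 fold of -2.24, Smtn of -1.76 and Tagln of -1.60. The median over the 8 was -3.07, beside 0.09 over all genes. All 8 were at least 2-fold lower on this scale, as were 7.53% of all genes, and 6 were at least 4-fold lower, as were 1.27% of all genes. With Myh11 itself counted, 30 of the 18073 genes had a log2 fold as low as that of Myh11 or lower.

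The columns of calls for the 2 comparisons of Notch1 genotypes share a header, and they were told apart by the FPKM ratios of the called genes. The authors' calls were stricter than a ratio of the 2 pooled values. In the authors' deposited table the smallest ratio of any called gene in this comparison was 4.67. Acta2, at 4.76 times its het-long level in WT-long, passed that ratio and was not called. Among genes with a mean of at least 10 FPKM, 54 of the 198 past that ratio (27.3%) were called in the authors' deposited table.

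With short telomeres, the same Notch1 genotypes were closer together. In the pair labelled het-short and WT-short, for which the Notch1 level itself ran against the labels, 0 of the 8 genes were called in the authors' deposited table, beside 0.36% of all genes called lower there. The log2 folds of het-short over WT-short were -1.64 for Cnn1, -1.52 for Myl9, -0.94 for Lmod1, -0.74 for Myh11 and -0.54 for Smtn. For Acta2, Tagln and Mylk they lay between -0.13 and -0.03, close to no difference. The median was -0.64, beside 0.06 over all genes, and 2 of 8 genes were at least 2-fold lower, as were 10.8% of all genes. That the difference between Notch1 genotypes was larger with long than with short telomeres is a description of 4 pooled values per gene and was not tested.

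**Figure D2:**
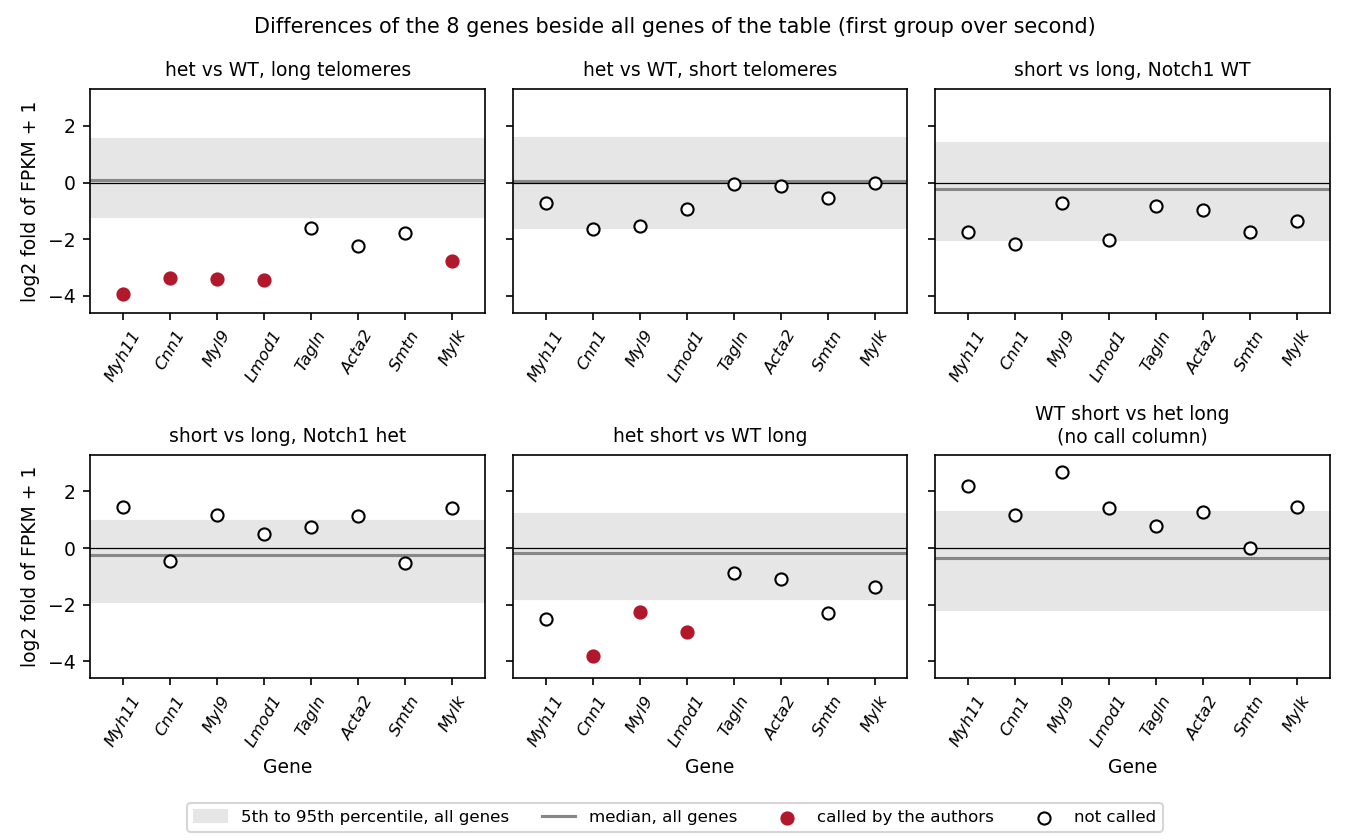
Log2 fold of FPKM + 1 for each of the 8 genes in 6 pairs of groups, first group over second; filled points are genes called in the authors' deposited table, grey bands span the 5th to 95th percentile of all 18073 genes and the grey line is their median. All 8 points lie below the band for het over WT with long telomeres, where 5 are filled, and 7 of 8 lie inside the band for het over WT with short telomeres.

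Short telomeres alone also went with lower values of the 8 genes in Notch1 wild type valves. WT-short was below WT-long for 8 of 8 genes, as for 61.1% of all genes. The log2 folds of the 8 ran from -2.18 for Cnn1 to -0.74 for Myl9. Lmod1 (-2.02), Smtn (-1.76), Myh11 (-1.75) and Mylk (-1.35) lay between, and Acta2 (-0.97) and Tagln (-0.82) were nearer to Myl9. None of the 8 was called in the authors' deposited table (0 of 8, beside 0.249% of all genes called lower). The median was -1.55, beside -0.23 over all genes. In this pair 5 of the 8 were at least 2-fold lower, as were 20.9% of all genes, and 2 were at least 4-fold lower, as were 5.17% of all genes.

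In Notch1 heterozygous valves the order of short and long telomeres was the other way for most of the 8. Het-short was above het-long for 6 genes, with log2 folds of 1.44 for Myh11, 1.41 for Mylk, 1.16 for Myl9, 1.15 for Acta2, 0.73 for Tagln and 0.48 for Lmod1. Het-short was below het-long for Cnn1 (-0.46) and Smtn (-0.53), as it was for 64.9% of all genes. The median was 0.94, beside -0.24 over all genes, and 4 of 8 genes were at least 2-fold higher, as were 4.71% of all genes. Of the 8, 0 were called in this pair in the authors' deposited table, beside 0.0775% of all genes called higher.

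Valves with both changes stayed below those with neither. In the authors' deposited table Cnn1, Myl9 and Lmod1 fell in het-short relative to WT-long, 3 of 8 genes beside 0.31% of all genes called lower. Their log2 folds were -3.82 for Cnn1, -2.96 for Lmod1 and -2.26 for Myl9. Myh11 (-2.49) and Smtn (-2.29) had folds of like size and were not called, and Mylk (-1.38), Acta2 (-1.09) and Tagln (-0.87) were the smallest. The median was -2.28, beside -0.16 over all genes. Here 7 of the 8 were at least 2-fold lower, as were 17.2% of all genes, and 5 were at least 4-fold lower, as were 3.8% of all genes. Set against each other, the single changes differed. WT-short was above het-long by a log2 fold of 2.68 for Myl9, 2.18 for Myh11, 1.44 for Mylk and 1.43 for Lmod1. The fold was 1.28 for Acta2, 1.17 for Cnn1 and 0.78 for Tagln, and the 2 groups were level for Smtn. That pair has no column of calls, its median was 1.35 beside -0.34 over all genes, and 6 of 8 genes were at least 2-fold higher in WT-short, as were 7.55% of all genes. All comparisons with WT-long share its single value, so they are not independent of each other.

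If the ratios of the single changes multiplied, the value expected with both changes would be the het-long value times the WT-short value over the WT-long value. The observed het-short level of Myh11 was 14.0 FPKM against a product of 1.31 FPKM. Mylk stood at 9.66 FPKM against 1.11 FPKM, Lmod1 at 3.06 FPKM against 0.421 FPKM, and Acta2 at 231 FPKM against 53.0 FPKM. The observed level was above the product for 8 of 8 genes, by ratios from 2.37 for Smtn to 10.7 for Myh11. On the log2(FPKM + 1) scale the departure had a median of 2.00 over the 8 genes, beside 0.00 over all genes, and it was at least 1 for 8 of 8, beside 16.5% of all genes. Each of the 8 departures contains the WT-long value, in which each of the 8 genes was highest, and no interaction could be tested without values per mouse.

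**Figure D3:**
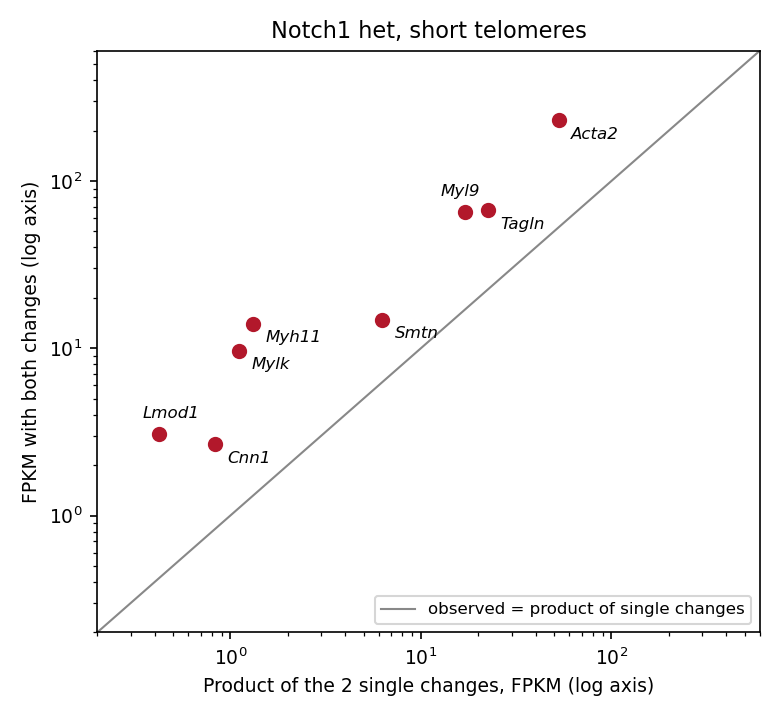
Observed FPKM in het-short (vertical, log axis) against the product of the 2 single changes (horizontal, log axis) for the 8 genes, 1 pooled value each, with the line of equality. All 8 points lie above the line, from Smtn, with a ratio of 2.37, to Myh11, with a ratio of 10.7.

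Other filament and anchoring genes of smooth muscle were mostly lower in het-long too, with smaller differences. Of 20 named genes, 18 were measured as 1 row each. In het-long 17 of the 18 were lower than in WT-long, 7 at least 2-fold, and 0 were called in the authors' deposited table. Of all genes, 43.6% were lower in that pair, 7.53% at least 2-fold, and 0.271% were called lower. With so small a share called, 0 calls in a list of this size does not set it apart. The median log2 fold of the 18 was -0.72. Tpm2, a tropomyosin that runs along the actin filament, stood at 21.8 FPKM in het-short, 21.2 FPKM in WT-short, 13.2 FPKM in het-long and 69.6 FPKM in WT-long. Its short-telomere groups were level, as for Mylk. Actg2, the gamma-actin of smooth muscle, stood at 1.39 FPKM in het-short, 4.19 FPKM in WT-short, 2.19 FPKM in het-long and 12.6 FPKM in WT-long. Cald1, caldesmon, which holds myosin off actin, had a log2 fold of -1.50 in het-long over WT-long, and Pdlim7, an actin-anchoring adaptor, of -1.37. Tpm1, which cardiac muscle also expresses, was the 1 exception, at 0.38. The medians of this list were -0.05 for het-short over WT-short, -0.48 for WT-short over WT-long, 0.19 for het-short over het-long and -0.56 for het-short over WT-long.

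Enzymes that set the phosphorylation of the light chain differed less in het-long over WT-long. Of 16 genes, 12 were lower in het-long than in WT-long, 3 at least 2-fold, with a median log2 fold of -0.41 and 0 called in the authors' deposited table. Among all genes 43.6% were lower in that pair, 7.53% at least 2-fold, and 0.271% were called lower. Ppp1r14a, the inhibitor of myosin phosphatase known as CPI-17, stood at 6.40 FPKM in het-short, 1.93 FPKM in WT-short, 1.16 FPKM in het-long and 6.19 FPKM in WT-long. Its het-short level was thus close to that of WT-long, whereas each of the 8 contractile genes was lower in het-short than in WT-long. Prkg1, the cGMP-dependent kinase that relaxes smooth muscle, had a log2 fold of -1.10 in het-long over WT-long, and Ppp1r12b, a targeting subunit of myosin phosphatase, of -0.67. Ilk, integrin-linked kinase, stood at 2.28 FPKM in het-short, 0.399 FPKM in WT-short, 4.11 FPKM in het-long and 9.69 FPKM in WT-long. Its log2 fold was -1.06 in het-long over WT-long and -2.93 in WT-short over WT-long, lower in that pair than for any of the 8 contractile genes. For WT-short over WT-long the median of the 16 was -0.49, with 5 at least 2-fold lower and 0 called in the authors' deposited table. This compares with 20.9% of all genes at least 2-fold lower and 0.249% called lower in that pair.

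Transcription regulators of smooth muscle were lower in 12 of 14 measured genes in het-long relative to WT-long, 4 at least 2-fold. Their median log2 fold was -0.60, and 0 were called in the authors' deposited table. The shares of all genes were 43.6% lower, 7.53% at least 2-fold lower and 0.271% called lower. Myocd stood at 5.33 FPKM in het-short, 5.24 FPKM in WT-short, 7.58 FPKM in het-long and 14.5 FPKM in WT-long. Srf stood at 15.2 FPKM in het-short, 20.0 FPKM in WT-short, 22.0 FPKM in het-long and 31.3 FPKM in WT-long. Both were highest in WT-long, as the contractile genes were, but both were lower in each short-telomere group than in het-long, where 6 of the 8 contractile genes were lowest. Klf5, a factor of proliferating smooth muscle, had the largest fold of the list in het-long over WT-long, -2.34, at 0.857 FPKM in het-long against 8.43 FPKM in WT-long. Csrp2, a LIM protein that bridges Srf and Gata factors, was at -1.56, Tead3 at -1.28 and Gata6 at -0.87.

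Among 17 channels and receptors of smooth muscle, 14 were lower in het-long than in WT-long, 3 at least 2-fold. Their median log2 fold was -0.50, and 0 were called in the authors' deposited table. Again 43.6% of all genes were lower, 7.53% at least 2-fold, and 0.271% were called lower. The subunits of the nitric oxide receptor guanylate cyclase led the list, with Gucy1b3 at -1.56 and Gucy1a3 at -1.34. Trpc1 and Trpc6, cation channels, stood at -0.77 and -0.74. Trpc6 had its highest level in WT-short, at 15.4 FPKM, against 0.637 FPKM in het-short, 1.02 FPKM in het-long and 2.37 FPKM in WT-long.

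Relatives of the 8 genes that are expressed outside smooth muscle showed smaller differences in het-long over WT-long. Of 19 paralogs, 16 were measured. In het-long 12 were lower than in WT-long, beside 43.6% of all genes, and 2 were at least 2-fold lower, beside 7.53%. The median log2 fold of the 16 was -0.28. Smtnl2, a smoothelin-like gene, had a log2 fold of -1.21, Myh10, a non-muscle myosin heavy chain, of -1.05, Cnn2, the calponin of non-muscle cells, of -0.81, and Actb, beta-actin, of -0.70. Tagln2 stood at 353 FPKM in het-short, 321 FPKM in WT-short, 265 FPKM in het-long and 342 FPKM in WT-long, and thus varied less than Tagln. Actc1, cardiac actin, was higher in het-long than in WT-long by a log2 fold of 1.14. In the authors' deposited table Acta1, skeletal actin, rose in het-short relative to het-long, at 176 FPKM in het-short against 25.4 FPKM in het-long, and it was the 1 paralog called in any pair. Its log2 fold there, 2.75, and in het-short over WT-short, 2.49, exceeded in size those of the 8 contractile genes in the same pairs.

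**Figure D4:**
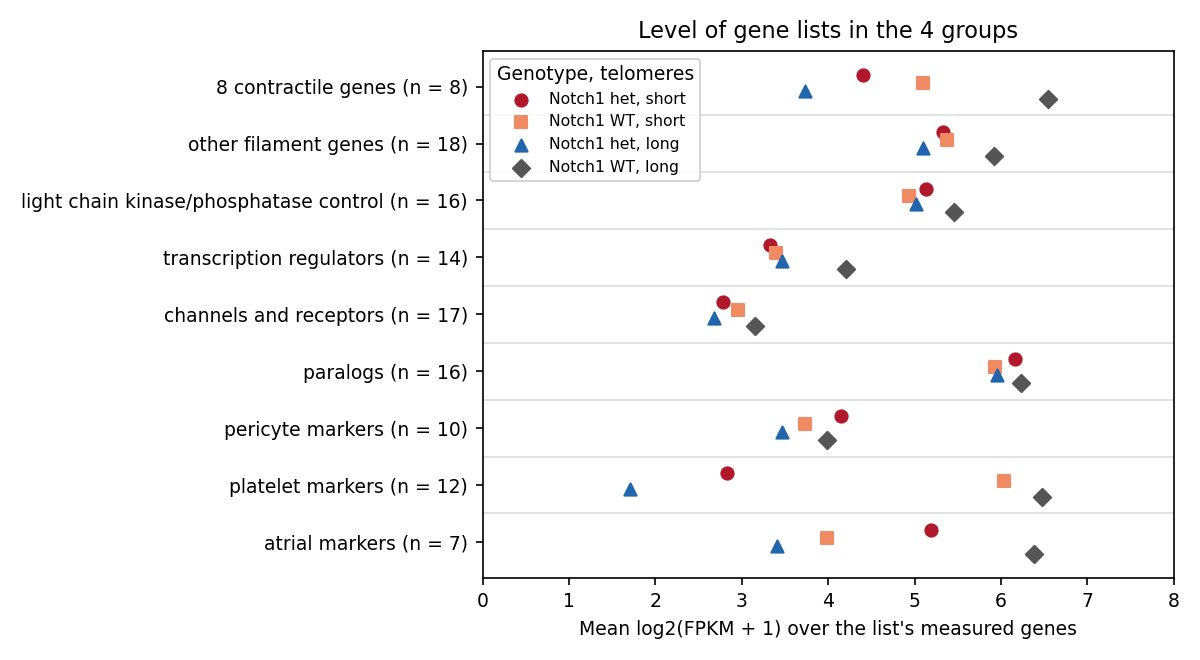
Mean log2(FPKM + 1) of 9 gene lists in the 4 groups, with 1 pooled value per gene and group; n is the number of genes measured. The 8 contractile genes run from 3.73 in het-long to 6.54 in WT-long, a wider range than the other smooth muscle lists. The platelet list, from 1.71 to 6.47, has the same order of groups, as do the other filament genes and the channels and receptors.

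Markers of other cells that the dissected leaflets could carry were set beside these results. Of 12 platelet markers, 12 fell in het-long relative to WT-long in the authors' deposited table, beside 0.271% of all genes called lower. The order of the group means of the platelet markers was that of the contractile genes. The same order held for the other filament genes and the channels and receptors. The mean log2(FPKM + 1) of the platelet markers was 2.83 in het-short, 6.04 in WT-short, 1.71 in het-long and 6.47 in WT-long. Their summed level was 425 FPKM in het-short, 2223 FPKM in WT-short, 133 FPKM in het-long and 3563 FPKM in WT-long. Ppbp, a platelet chemokine, stood at 85.9 FPKM in het-short, 849.9 FPKM in WT-short, 12.9 FPKM in het-long and 1636 FPKM in WT-long. No platelet marker was listed at 0 in any group. Platelets are known to contain Myl9, Mylk and Tagln transcripts or protein; without these 3 genes the median log2 fold of the remaining 5 was -3.35 in het-long over WT-long and -1.76 in WT-short over WT-long. In WT-short over WT-long the platelet list had a median log2 fold of -0.52. Of its 12 genes, 9 were lower there and 0 were called in the authors' deposited table. The pooled values do not show which cells the RNA of the contractile genes came from, and the part of platelets in it was not tested.

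Of 7 atrial muscle markers, 7 were lower in het-long than in WT-long, beside 43.6% of all genes. In the authors' deposited table Myl7, an atrial light chain, and Bmp10 fell there, beside 0.271% of all genes called lower. The mean log2(FPKM + 1) of the 7 was 5.19 in het-short, 3.99 in WT-short, 3.40 in het-long and 6.38 in WT-long. In WT-short 6 of the 7 were at least 2-fold lower than in WT-long, with a median log2 fold of -2.18 and 1 called lower in the authors' deposited table. Among all genes 20.9% were at least 2-fold lower in that pair and 0.249% were called lower. In het-short 6 of the 7 were above het-long, with a median of 2.11 and 1 called higher in the authors' deposited table. In both of these pairs the list differed in the same direction as most of the contractile genes. In het-short over WT-short it went the other way, with a median of 1.43, beside -0.64 for the contractile genes. There 4 of the 7 were at least 2-fold higher, 2 were lower, and 0 were called in the authors' deposited table. The atrial list did not share the order of group means of the contractile genes. Its summed level, in which Dkk3 weighs heavily, was 899.6 FPKM in het-short, 843 FPKM in WT-short, 373 FPKM in het-long and 1116 FPKM in WT-long. Bmp10, a ligand made mainly in the atria, was listed at 0 in het-short and in WT-short, against 0.162 FPKM in het-long and 35.9 FPKM in WT-long. Among 10 pericyte markers the median log2 fold of het-long over WT-long was -0.01, with 5 lower and 5 higher. Their summed level was 378 FPKM in het-short, 382 FPKM in WT-short, 246 FPKM in het-long and 305 FPKM in WT-long. The genes of this list differed in their order. Rgs5, the most abundant of them, stood at 236 FPKM in het-short, 245 FPKM in WT-short, 157 FPKM in het-long and 136 FPKM in WT-long. In het-long 4 of the 10 were at least 2-fold lower than in WT-long, beside 7.53% of all genes, and 0 at least 2-fold higher. Pdgfrb stood at 31.8 FPKM in het-long against 68.9 FPKM in WT-long, and Mcam at 9.92 FPKM against 23.9 FPKM. Cspg4 stood at 6.39 FPKM in het-long against 27.2 FPKM in WT-long, and Ndufa4l2 at 5.29 FPKM against 18.2 FPKM. In het-short, however, 4 of the 10 were at least 2-fold higher than in WT-long and 3 at least 2-fold lower. Among all genes 17.2% were at least 2-fold lower in that pair, and the 95th percentile of the log2 fold was 1.22. The mean log2(FPKM + 1) of the pericyte list was 4.14 in het-short, 3.74 in WT-short, 3.47 in het-long and 3.99 in WT-long. Among 10 myofibroblast matrix markers the summed level was 944 FPKM in het-short, 864 FPKM in WT-short, 612 FPKM in het-long and 936 FPKM in WT-long. Of 13 interstitial markers, 12 were lower in het-long than in WT-long, with a median of -0.61, and 0 were called in the authors' deposited table. The shares of all genes were 43.6% lower and 0.271% called lower. Of 9 mesothelial markers, 6 were at least 2-fold lower in het-long than in WT-long, with a median of -1.40, as were 6 of 7 erythroid markers, with a median of -1.14; 0 of either list were called in the authors' deposited table. T cell markers differed the other way. In het-long 10 of 10 were at least 2-fold higher than in WT-long, with a median of 3.20 beside 0.09 over all genes. The lowest fold of the 10 was 2.29, against a 95th percentile of 1.54 over all genes. Of the 10, 7 were called higher in the authors' deposited table, beside 26 of all 18073 genes. The summed level of the T cell markers was 20.0 FPKM in het-short, 196 FPKM in WT-short, 1308 FPKM in het-long and 141 FPKM in WT-long. Neutrophil markers stood out in WT-short, where 9 of 9 were at least 2-fold higher than in WT-long. Their median was 4.02, beside -0.23 over all genes. The lowest fold of the 9 was 1.76, against a 95th percentile of 1.39 over all genes. Of the 9, 7 were called higher in the authors' deposited table, beside 79 of all 18073 genes. The neutrophil markers summed to 173 FPKM in het-short, 1789 FPKM in WT-short, 45.7 FPKM in het-long and 16.5 FPKM in WT-long, where Ngp and Camp were listed at 0. The part of these cells, or of the amount of aortic root tissue, in the contractile gene values was not tested.

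The genes whose profile over the 4 groups lay closest to the mean profile of the 8 were ranked by the Euclidean distance of centred log2(FPKM + 1) values, over 4 group values and 6247 genes with a mean of at least 10 FPKM and a proper symbol. The 3 nearest were Gas2l1, which links actin to microtubules, at a distance of 0.61, Tpm2 at 0.64, and Cntfr, the receptor of ciliary neurotrophic factor, at 0.68. Nov (0.78), Lsm12 (0.79), Stard10 (0.83), Egr3 (0.86), Entpd2 (0.88), Ctla2a (0.89) and Tsc22d1 (0.90) followed. The 8 genes themselves lay at 0.61 (Lmod1) to 1.21 (Cnn1) from their own mean, so that the nearest other genes were no farther from it than several of the 8. Stard10 is also on the atrial list and Tpm2 on the filament list. With 4 values a gene, such likeness is easily reached in a table of this size.

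Sharing of sequence with other genes could affect 3 of the 8, because the amplification kit does not keep the strand. In GENCODE transcripts of build GRCm38, 33.2% of the 100-base windows of Tagln also lay in transcripts of other genes, Gm48529 and Pcsk7, which lie on the opposite strand, as did 7.45% of the windows of Smtn, shared with Gm11946, and 2.34% of those of Mylk. Windows of Myh11, Cnn1, Myl9, Lmod1 and Acta2 were shared with 0 other genes. Pcsk7 stood at 6.69 FPKM in het-short, 14.3 FPKM in WT-short, 13.3 FPKM in het-long and 18.5 FPKM in WT-long, well under the level of Tagln in each group. Gm11946 did not pass 2.74 FPKM, its WT-long value. How the authors' counting assigned reads of such windows is not given in the sources used here.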

How the data were processed

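RNA of aortic valve leaflets was amplified with a linear, single-primer method (NuGen Ovation RNA-seq V2, which does not keep the strand) and sequenced as paired ends of 100 bp on an Illumina instrument, per the labels' protocols. The submitters' processing notes name the build mm9 and the tools TopHat, SAMtools, Picard and FastQC. Which program computed the expression values, on which annotation, and how genes were called is not given in the sources used here. Per the file headers, the deposited table holds 1 FPKM for each of 18073 genes in each group, so the authors pooled or averaged libraries first. A further 5 deposited columns of 0 or 1 were taken as the authors' calls. Of these, 2 share a header; each column was assigned to the pair of groups in which every called gene had at least a 4-fold ratio. Depth per library is unknown.

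Log2 folds were computed with a pseudocount of 1. Tests had been planned for values per library and could not be run; differences are described beside all genes and the authors' calls. The 8 genes, the gene lists and the alternatives were chosen with earlier results of these data known. The genes named besides the 8 were the 4 of each smooth muscle list with the largest fold in het-long over WT-long among genes with a mean of at least 1 FPKM, Myocd and Srf, the paralogs, the 10 nearest profiles and up to 3 genes of each marker list, of which a part is named; Tpm1, Bmp10, Cspg4, Ndufa4l2, Ngp, Camp, Pcsk7 and Gm11946 were singled out after their values were seen. The code was tested on simulated data. Promoters came from RefSeq (GRCm38.p6) and transcripts from GENCODE (GRCm38), both picked by gene symbol, with promoters found for 6 of the 8 genes. The identifiers of 8 of 8 genes carried the same symbol in GENCODE. Coordinates of mm9 were not used. Computation used Python 3.11.15 with pandas 2.3.3 and numpy 2.4.6, and figures were drawn with matplotlib 3.10.9.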

Additional observations from a re-analysis of the deposited data

How the results depend on the processing

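Alternatives were pseudocounts of 0.1 and 5, scaling each group to an equal median gene, scaling without mitochondrially encoded genes, setting the 8 genes against the genes with a mean of at least 10 FPKM, and leaving out Myl9, Mylk and Tagln. The direction of the median over the 8 genes was the same under each of these in all 6 pairs of groups. With a pseudocount of 5 the median of het-long over WT-long was -2.28 in place of -3.07, a move of over 1.5-fold, and the other 5 medians moved by less. Scaling to an equal median gene gave -3.13 for het-long over WT-long, -0.62 for het-short over WT-short, -1.39 for WT-short over WT-long, 1.22 for het-short over het-long, -2.09 for het-short over WT-long and 1.58 for WT-short over het-long. Of 192 single gene values under the 4 alternatives of scale, 2 changed sign, Mylk in het-short over WT-short (-0.03, then 0.01) and Smtn in WT-short over het-long (0.00, then -0.06), both near no difference and both without mitochondrially encoded genes. With a pseudocount of 5, 8 of these values moved by over 1.5-fold. For het-long over WT-long they were Myh11 (-3.21), Cnn1 (-2.62), Lmod1 (-2.37) and Mylk (-1.98), for het-short over WT-long Cnn1 (-2.86) and Lmod1 (-2.14), for het-short over WT-short Cnn1 (-1.01), and for WT-short over het-long Lmod1 (0.77). A plain ratio of at least 2 between pooled FPKM values, in place of the authors' calls, gave more genes in each pair with calls. It held for 8 genes in het-long against WT-long, 3 in het-short against WT-short and 5 in WT-short against WT-long. It held for 4 in het-short against het-long and 7 in het-short against WT-long. A ratio of at least 4 held for 6 genes in het-long against WT-long, 2 in WT-short against WT-long and 5 in het-short against WT-long. It held for 0 in het-short against WT-short and 0 in het-short against het-long, as many as were called. The shares of all genes past these plain ratios were not computed. On the log2(FPKM + 1) scale, 7.53% of all genes were at least 2-fold lower in het-long over WT-long. The share was 10.8% in het-short over WT-short, 20.9% in WT-short over WT-long and 17.2% in het-short over WT-long. In het-short over het-long 4.71% were at least 2-fold higher. At least 4-fold lower were 1.27% in het-long over WT-long, 5.17% in WT-short over WT-long and 3.8% in het-short over WT-long. No paired analysis was possible because the table holds 1 value per group, and for the same reason leaving out each replicate in turn was not run. In an alternative chosen after seeing the data, the departure from the product had a median of 2.02 with a pseudocount of 0.1 and of 1.80 with a pseudocount of 5.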
